A study of Mus musculus with 16 samples.

Results

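The genes of mitochondrial DNA, and the nuclear genes that copy, transcribe and process it, were examined in mouse hearts with Cpt2 deleted. The members were every row whose gene symbol starts with mt- in a table of CPT2H-KO and wild type hearts, and 22 nuclear gene names looked up in that table and in a second one. Peo1 is an older symbol of Twnk, so the 22 names are 21 genes, and all 21 had a row in each table. In the first table the members were 48 of 14138 genes, made up of 2 rRNA genes, 13 protein genes and 12 tRNA genes of mitochondrial DNA (mtDNA) and the 21 nuclear genes. GENCODE M21 annotates 37 mtDNA genes, of which 22 are tRNA genes. The 10 tRNA genes without a row were not analysed here. In the second table the 21 nuclear genes were the members among 17831 genes, and mtDNA genes were not analysed here.

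The series holds total RNA sequencing of 16 mouse heart samples, 1 library each. Carnitine palmitoyltransferase 2 (CPT2) is the inner membrane enzyme that prepares long-chain fatty acids for oxidation, and the series asks how hearts respond when that oxidation is impaired. CPT2H-KO hearts (n = 5) came from mice with Cpt2 deleted in cardiomyocytes and were set against wild type hearts (n = 5). CPT2/USP30 double KO hearts (n = 3) were set against CPT2 single KO hearts (n = 3), so both groups of the second table carry the Cpt2 deletion by their labels. USP30 is a deubiquitinase of the mitochondrial outer membrane that counteracts the removal of mitochondria by autophagy. The labels describe the floxed Usp30 allele as deleted with Myh6-Cre, whose promoter is active in cardiomyocytes, so other cell types of the heart are not targeted by it. The single KO hearts carry the same genotype label as the CPT2H-KO hearts. The Cre line used for Cpt2, and the age and sex of the mice, are not given in the labels.

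Mammalian mtDNA is a small circle that is transcribed from both strands into long precursors. These are cut into rRNAs, messenger RNAs and tRNAs, largely by excision of the tRNAs that lie between the other genes. The messenger RNAs encode core subunits of respiratory complexes I, III, IV and V, which are assembled with many more subunits encoded in the nucleus. The enzymes that transcribe, replicate, cut and degrade these molecules are all nuclear gene products imported into the organelle, and heart muscle is among the tissues richest in mitochondria.

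Libraries of the first table held 54674422 to 132762776 counts, and those of the second 11067969 to 13532716. Levels are given in CPM, the count of a gene divided by its library size after TMM scaling and put on a common scale, and groups were compared within a table only. Because of the TMM factor, the CPM of a library can sum to more or less than the nominal total. Cpt2 itself ranged from 30.4 to 44.9 CPM in the CPT2H-KO hearts and from 53.0 to 89.9 CPM in the wild type hearts, without overlap. In the second table, which holds no wild type hearts to set it against, Cpt2 ranged from 166 to 189 CPM in the double KO hearts and from 164 to 182 CPM in the single KO hearts. Usp30 had 10.3, 10.4 and 7.45 CPM in the double KO hearts, against 18.5, 22.8 and 21.7 CPM in the single KO hearts. The 8 cardiomyocyte markers checked were present in every library, with summed levels of 49000 to 56950 CPM in CPT2H-KO hearts and 54300 to 61660 CPM in wild type hearts, and 5 of the 8 fell. The atrial marker Myl7 varied widely, from 0.285 to 144 CPM in CPT2H-KO hearts and from 25.4 to 194 CPM in wild type hearts. The 4 atrial markers checked (Myl7, Myl4, Sln and Nppa) did not move together, with log2 fold changes from -1.48 to 2.12, 1 called higher and 0 lower. They summed to 368 to 2667 CPM in CPT2H-KO hearts and 226 to 1052 CPM in wild type hearts. The atrial covariate used below leaves out Nppa. The part of tissue sampling in the results was not tested beyond the covariate fits given with them. The 6 fibroblast markers summed to 596 to 1092 CPM in CPT2H-KO hearts and 440 to 592 CPM in wild type hearts, 2 of the 6 rose and none was at 0, and their part in the results was not tested. In these bulk samples fewer cells of a type and less RNA per cell cannot be told apart.

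The mtDNA rows have near-identical relatives in the nucleus, which bear on every value that follows. A search of the mtDNA gene sequences against GENCODE M21 nuclear transcripts on GRCm38 found 7 pseudogenes that match an mtDNA gene at 99% identity or more. All 7 lie side by side on the minus strand of chromosome 1 and have rows of their own in the first table. They match the last part of mt-Co1 (Gm29216), the first part of mt-Nd4 (Gm28439) and nearly all of mt-Co2 (Gm28661), mt-Atp6 (Gm10925), mt-Co3 (Gm28437), mt-Nd3 (Gm28438) and mt-Nd4l (Gm10222). The 2 stretches below are shown because they contain single bases that separate an mtDNA gene from its copies, which are set in capitals. The first is at chrM:6390-6489 on the plus strand in mt-Co1, at chr1:24616089-24616188 on the minus strand in Gm29216 and at chr2:22588486-22588585 on the minus strand in Gm13340, a chromosome 2 copy of the whole gene at 97.6% identity.
mt-Co1: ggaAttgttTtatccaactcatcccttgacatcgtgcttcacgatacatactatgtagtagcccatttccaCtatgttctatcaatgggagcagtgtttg
Gm29216: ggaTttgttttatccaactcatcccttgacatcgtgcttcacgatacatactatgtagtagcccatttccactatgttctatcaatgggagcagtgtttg
Gm13340: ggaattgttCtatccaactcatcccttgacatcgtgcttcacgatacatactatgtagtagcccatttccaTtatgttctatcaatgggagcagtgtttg
Counted from 1 at the first base of mt-Co1, the difference is A1066T in Gm29216, and the differences in this stretch of Gm13340 are T1072C and C1134T. The second stretch is the start of mt-Nd3 at chrM:9459-9558 on the plus strand and its copy at chr1:24613020-24613119 on the minus strand, where the difference is T3C counted from the first base of mt-Nd3.
mt-Nd3: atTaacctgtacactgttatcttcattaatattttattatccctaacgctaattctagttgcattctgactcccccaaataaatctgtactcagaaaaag
Gm28438: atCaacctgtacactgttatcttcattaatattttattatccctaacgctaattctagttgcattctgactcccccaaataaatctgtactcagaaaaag

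The opening of mt-Co3, at chrM:8607-8706 on the plus strand, shows the case of the 5 copies at 100% identity, in which Gm28437 at chr1:24613872-24613971 on the minus strand is letter for letter the same and a read from either place cannot be assigned.
mt-Co3: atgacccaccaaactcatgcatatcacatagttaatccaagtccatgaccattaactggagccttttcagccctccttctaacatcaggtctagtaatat
Gm28437: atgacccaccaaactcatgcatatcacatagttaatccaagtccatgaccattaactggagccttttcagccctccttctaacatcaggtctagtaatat
The deposited counts divide between such pairs in different ways. The Gm28437 row held 5.28 to 9.08 times the counts of the mt-Co3 row in CPT2H-KO hearts and 5.50 to 10.4 times in wild type hearts. The copy rows of mt-Co2, mt-Atp6, mt-Nd3 and mt-Nd4l also exceeded their mtDNA rows in every library, with medians of 5.77, 8.77, 6.88 and 7.47 times in CPT2H-KO hearts and 5.67, 10.5, 8.00 and 8.11 times in wild type hearts. For mt-Co1 and mt-Nd4, which extend beyond their copies, the copy row held at most 0.0461 and 0.0748 of the mtDNA row's counts in CPT2H-KO hearts and at most 0.0489 and 0.0572 in wild type hearts. The sources used here do not say how the authors assigned reads that fit 2 places, and the rows of these 7 mtDNA genes are uncertain, while mt-Nd1, mt-Nd2, mt-Atp8, mt-Nd5, mt-Nd6 and mt-Cytb have no annotated copy at that identity. The end of mt-Atp8 lies within the start of mt-Atp6, however, and is shared with Gm10925. The rest of mt-Atp8, and the tRNA genes mt-Ts1, mt-Tg and mt-Tr, lie on mtDNA between genes whose copies are neighbours on chromosome 1. The search covered annotated transcripts only, so whether the stretches between those copies match these genes was not tested. It also kept only matches of at least 100 bases, which is longer than any mtDNA tRNA gene, so it could find no copy of a tRNA gene.

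**Figure D1:**
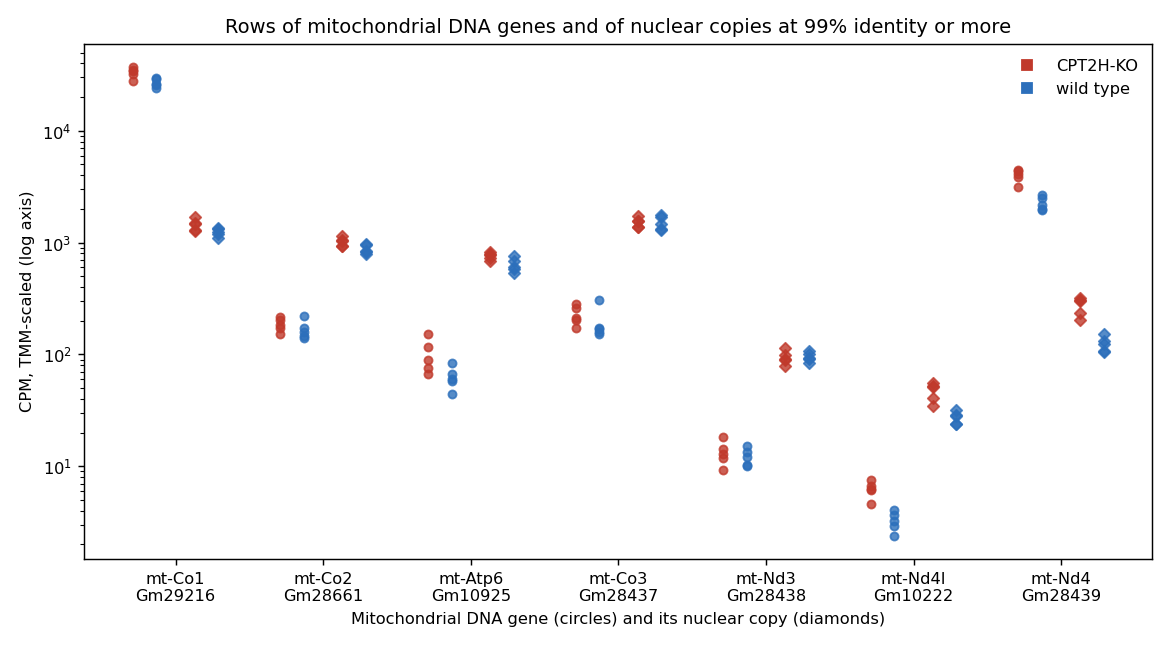
CPM after TMM scaling on a log axis for 7 mtDNA genes (circles) and their nuclear copies (diamonds), with each point 1 library and CPT2H-KO libraries left of wild type libraries. The diamonds lie above the circles for mt-Co2, mt-Atp6, mt-Co3, mt-Nd3 and mt-Nd4l and below them for mt-Co1 and mt-Nd4.

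Levels per length were uneven too, among genes with and without such a copy. In CPT2H-KO hearts mt-Co1 had 21520 ± 2133 CPM per kilobase, mt-Co3 288 ± 56.3 and mt-Nd4l 21.0 ± 3.59, and in wild type hearts these levels were 17400 ± 1550, 246 ± 83.8 and 11.0 ± 2.19 (SD, n = 5 each). In wild type hearts mt-Co1 was thus counted 2.57 times as densely as mt-Nd1 and 3.36 times as densely as mt-Cytb, neither of which has such a copy, but 70.8 times as densely as mt-Co3 and 1583 times as densely as mt-Nd4l.

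Genes of mtDNA were counted at higher levels in CPT2H-KO hearts. Of the 27 mtDNA rows, 16 rose and 0 fell at an adjusted p under 0.05 (edgeR quasi-likelihood test, Benjamini-Hochberg over 14123 genes), and 8 had groups that did not overlap. Among all tested genes 33.7% were called, 16.7% higher and 17.0% lower, and 24.7% had groups that did not overlap (11.5% higher in CPT2H-KO hearts and 13.2% lower). The median log2 fold change (CPT2H-KO over wild type) was 0.43 over the 27 rows and -0.01 over all genes. Both rRNA genes, 10 of 13 protein genes and 4 of 12 tRNA genes rose. On library totals alone, which moved the median of all genes to -0.27, 8 of the 27 were called, all higher, and the 16 all stayed above 0, while the calls over all genes were 827 higher and 4832 lower, beside 2360 higher and 2398 lower after TMM scaling. The calls lost on library totals were those of mt-Rnr1, mt-Rnr2, mt-Nd1, mt-Co1, mt-Atp8, mt-Atp6, mt-Cytb and mt-Ts1. Scaled to the summed mtDNA messages, which asks how genes moved relative to one another and moved the median of all genes to -0.43, 6 were called, all higher. On that scaling mt-Rnr1, mt-Rnr2, mt-Nd1, mt-Co1 and mt-Cytb stood at -0.12 to -0.01 and were not called.

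**Figure D2:**
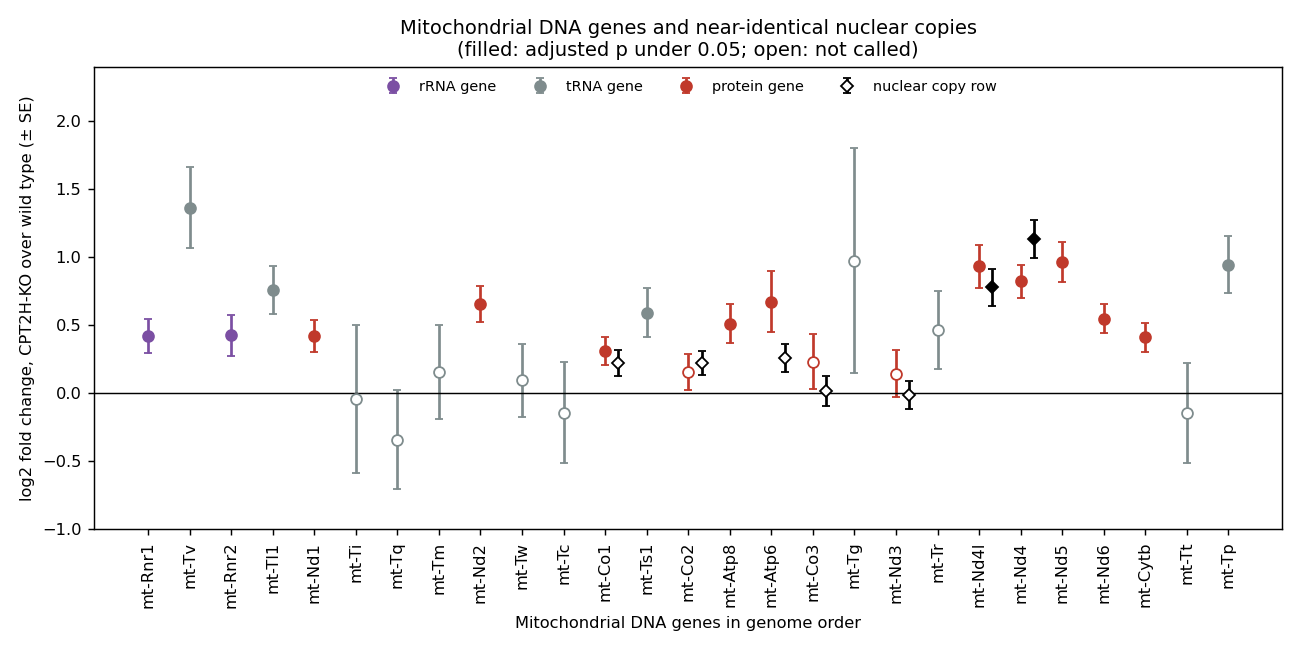
Log2 fold change with SE (CPT2H-KO over wild type) on the y axis for the 27 mtDNA rows in genome order, coloured by gene type, and for 7 nuclear copy rows (black diamonds); filled points passed an adjusted p of 0.05. Every filled point lies above 0 on this scaling. Scaled to mtDNA messages, mt-Rnr1, mt-Rnr2, mt-Nd1, mt-Co1 and mt-Cytb stood at -0.12 to -0.008 and were not called.

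The complex I genes encode the proton-pumping membrane part of the NADH dehydrogenase, and 6 of 7 rose, with a median log2 fold change of 0.66. The largest changes among protein genes were in the neighbours mt-Nd4l, mt-Nd4 and mt-Nd5. For mt-Nd5 (chrM:11742-13565, plus strand) there were 6418, 3525, 5598, 5473 and 4447 CPM in the CPT2H-KO hearts, against 2638, 2962, 2676, 2362 and 2405 CPM in the wild type hearts. Every CPT2H-KO heart lay above every wild type heart (log2 fold change 0.97, SE 0.15, adjusted p = 0.000803), and replicate 2 was the lowest of the CPT2H-KO hearts. The mt-Nd4 row had 4070, 3113, 4486, 4375 and 3869 CPM in the CPT2H-KO hearts, against 2168, 2639, 2486, 1966 and 2006 CPM in the wild type hearts. Again the groups did not overlap and CPT2H-KO replicate 2 was nearest to the wild type hearts (log2 fold change 0.82, SE 0.12, adjusted p = 0.000632). For mt-Nd4l there were 6.22, 4.60, 7.55, 6.60 and 6.14 CPM in the CPT2H-KO hearts, against 3.69, 4.06, 3.26, 2.38 and 2.92 CPM in the wild type hearts, without overlap (log2 fold change 0.93, SE 0.16, adjusted p = 0.00154). mt-Nd4l and mt-Nd4 are carried on 1 messenger RNA and share 7 bases, set in capitals in the end of mt-Nd4l (chrM:10115-10173) and the start of mt-Nd4 (chrM:10167-10225), both on the plus strand.
mt-Nd4l: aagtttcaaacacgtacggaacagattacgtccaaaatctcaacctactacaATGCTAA
mt-Nd4: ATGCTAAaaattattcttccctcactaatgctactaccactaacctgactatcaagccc
Their nuclear copies rose as well. Gm10222 averaged 46.9 ± 8.97 CPM in CPT2H-KO hearts and 27.4 ± 3.59 CPM in wild type hearts, and Gm28439 averaged 272 ± 49.96 CPM in CPT2H-KO hearts and 124 ± 19.1 CPM in wild type hearts (SD, n = 5 each). Neither copy overlapped between groups, with log2 fold changes of 0.78 (adjusted p = 0.00188) and 1.13 (adjusted p = 0.000258).

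mt-Nd2 had 3172, 2888, 4009, 4213 and 3798 CPM in the CPT2H-KO hearts, against 2312, 2740, 2496, 1948 and 1974 CPM in the wild type hearts. The groups did not overlap, with CPT2H-KO replicate 2 and wild type replicate 2 closest to each other (log2 fold change 0.66, SE 0.13, adjusted p = 0.00345). mt-Nd6 (chrM:13552-14070, minus strand) is the protein gene of the opposite strand, and its row had 110.4, 85.4, 91.8, 115 and 91.4 CPM in the CPT2H-KO hearts, against 68.9, 79.8, 65.0, 58.5 and 66.2 CPM in the wild type hearts. All CPT2H-KO hearts were above all wild type hearts (log2 fold change 0.55, SE 0.11, adjusted p = 0.00283). For mt-Nd1 there were 7728, 7320, 8532, 9235 and 10500 CPM in the CPT2H-KO hearts, against 6368, 7379, 6982, 5776 and 5913 CPM in the wild type hearts. CPT2H-KO replicate 2 lay just below wild type replicate 2, so the groups overlapped at that point (log2 fold change 0.42, SE 0.12, adjusted p = 0.0174). mt-Nd3 was the complex I gene that was not called, with 13.4 ± 3.35 CPM in CPT2H-KO hearts and 12.2 ± 2.14 CPM in wild type hearts (SD, n = 5 each) and a log2 fold change of 0.14.

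Cytochrome b, the mtDNA subunit of complex III, is encoded by mt-Cytb, which had 8248, 6461, 8854, 8167 and 7641 CPM in the CPT2H-KO hearts, against 5832, 6841, 6209, 5255 and 5521 CPM in the wild type hearts. CPT2H-KO replicate 2 lay below wild type replicate 2 and the other 4 CPT2H-KO hearts lay above every wild type heart (log2 fold change 0.41, SE 0.11, adjusted p = 0.0126). On library totals alone its log2 fold change was 0.14 (adjusted p = 0.168), and with the level of atrial markers as a covariate it was 0.40 (adjusted p = 0.0736). Of the 3 complex IV genes, which encode the catalytic core of cytochrome oxidase, mt-Co1 alone was called, with 32240, 28130, 34350, 34700 and 36840 CPM in the CPT2H-KO hearts, against 26330, 29850, 28760, 24020 and 25430 CPM in the wild type hearts. CPT2H-KO replicate 2 lay within the wild type range (log2 fold change 0.31, SE 0.10, adjusted p = 0.0414), and the call was lost on leaving out any 1 of 6 of the 10 libraries, CPT2H-KO replicates 3, 4 and 5 and wild type replicates 1, 4 and 5, where the log2 fold change ran from 0.27 to 0.30. mt-Co2 averaged 186 ± 25.5 CPM in CPT2H-KO hearts and 167 ± 31.7 CPM in wild type hearts (SD, n = 5 each), with a log2 fold change of 0.16. mt-Co3 averaged 226 ± 44.1 CPM in CPT2H-KO hearts and 193 ± 65.7 CPM in wild type hearts (SD, n = 5 each), and its log2 fold change of 0.23 was 0.47 and called (adjusted p = 0.0283) without wild type replicate 2, the library with 309 CPM.

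Both mtDNA genes of complex V, the ATP synthase, rose. For mt-Atp6, which encodes the subunit that forms the proton path, there were 67.2, 115, 88.6, 75.0 and 151 CPM in the CPT2H-KO hearts, against 57.7, 66.6, 83.4, 44.1 and 60.1 CPM in the wild type hearts. CPT2H-KO replicates 5 and 2 were high, replicate 3 was just above the wild type range and replicates 1 and 4 were within it (log2 fold change 0.67, SE 0.23, adjusted p = 0.0395). With the Gm10925 counts added to it, the mt-Atp6 log2 fold change was 0.30 (adjusted p = 0.0445), while the call on the deposited row was lost on leaving out any 1 of CPT2H-KO replicates 2 and 5 and wild type replicates 1, 2, 4 and 5. For mt-Atp8 there were 11.7, 14.1, 16.6, 15.9 and 18.8 CPM in the CPT2H-KO hearts, against 9.82, 13.9, 11.6, 8.99 and 9.73 CPM in the wild type hearts. CPT2H-KO replicate 1 was the lowest of its group and lay within the wild type range (log2 fold change 0.51, SE 0.15, adjusted p = 0.0198), and without wild type replicate 1 the adjusted p was 0.05004. The 2 genes overlap by 43 bases, shown in capitals in the end of mt-Atp8 (chrM:7907-7969) and the start of mt-Atp6 (chrM:7927-7989) on the plus strand, so reads in this stretch belong to both.
mt-Atp8: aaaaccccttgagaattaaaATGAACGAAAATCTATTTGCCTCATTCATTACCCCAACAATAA
mt-Atp6: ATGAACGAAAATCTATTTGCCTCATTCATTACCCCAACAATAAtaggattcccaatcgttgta

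**Figure D3:**
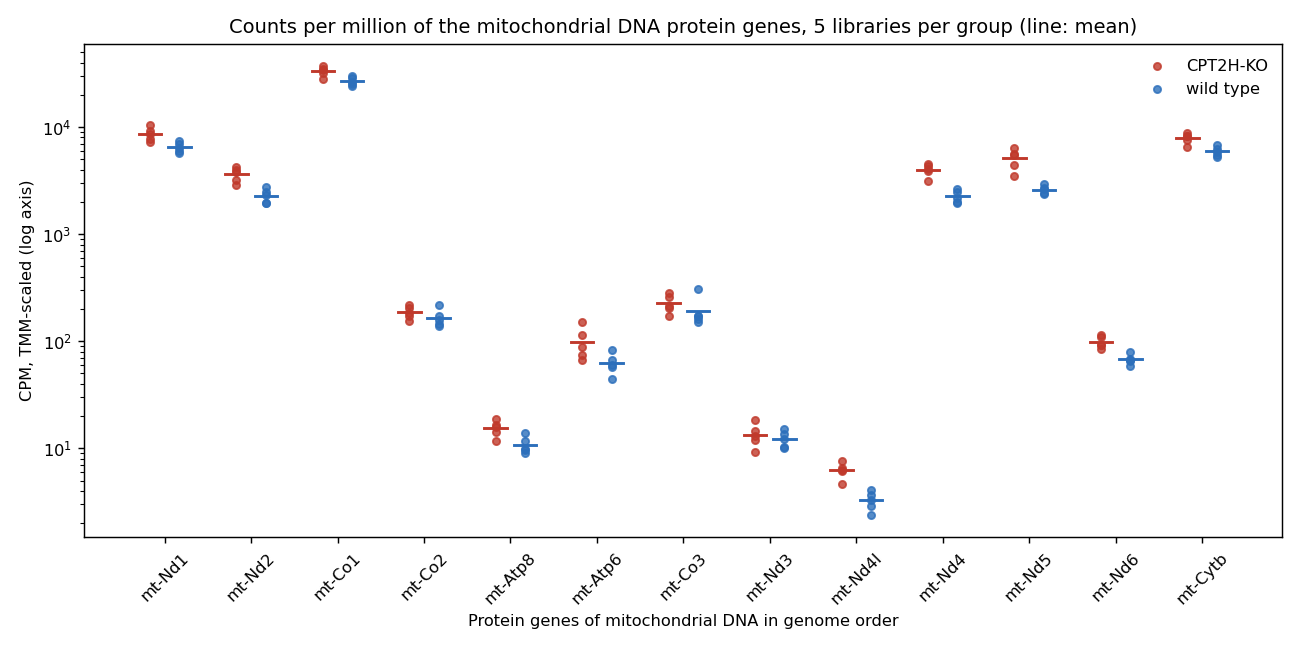
CPM after TMM scaling on a log axis for the 13 protein genes of mtDNA in genome order, with each point 1 library, a line at the group mean, and CPT2H-KO libraries left of wild type libraries. The groups are fully apart for mt-Nd2, mt-Nd4l, mt-Nd4, mt-Nd5 and mt-Nd6 and overlap for the other 8 genes.

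The 6 protein genes without an annotated copy at 99% identity all rose, with log2 fold changes from 0.41 to 0.97 and a median of 0.53. They include mt-Atp8, which lies between genes with copies, and copies without an annotation were not searched for. With the counts of the 7 copies added to their mtDNA rows, an alternative chosen after seeing the data, 10 of 13 protein genes were again called, all higher, and the median log2 fold change was 0.42. The rows of mt-Co3 and mt-Nd3 then stood at 0.04 and 0.00, mt-Co2 at 0.21, and mt-Nd4l and mt-Nd4 at 0.79 and 0.84. The copies of mt-Co1, mt-Co2, mt-Atp6, mt-Co3 and mt-Nd3 were not called, with log2 fold changes from -0.01 to 0.26.

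The rRNA genes encode the RNAs of the small (mt-Rnr1) and large (mt-Rnr2) subunits of the mitochondrial ribosome. Library preparation included a ribosomal RNA removal step. The sources used here do not say whether mitochondrial rRNA was a target of it, and the efficiency of that step and the RNA level cannot be told apart in these rows. mt-Rnr1 (chrM:70-1024, plus strand) had 97450, 66910, 86720, 82370 and 91220 CPM in the CPT2H-KO hearts, against 64280, 70060, 63500, 54630 and 64890 CPM in the wild type hearts. CPT2H-KO replicate 2 lay within the wild type range and the other 4 lay above it (log2 fold change 0.42, SE 0.12, adjusted p = 0.0226). mt-Rnr2 (chrM:1094-2675, plus strand) had 692700, 440600, 603000, 621500 and 615600 CPM in the CPT2H-KO hearts, against 443600, 487900, 440000, 386900 and 455800 CPM in the wild type hearts. The same replicate overlapped the wild type hearts (log2 fold change 0.43, SE 0.15, adjusted p = 0.0470), and the call for mt-Rnr2 was lost on leaving out any 1 of CPT2H-KO replicates 1, 3, 4 and 5 and wild type replicates 1, 3 and 4, with adjusted p-values from 0.0503 to 0.0915.

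On average the 2 rRNAs stood in the same proportion in both groups. The mt-Rnr2 row held 7.11, 6.59, 6.95, 7.55 and 6.75 times the counts of mt-Rnr1 in CPT2H-KO hearts, against 6.90, 6.96, 6.93, 7.08 and 7.02 times in wild type hearts. The mean log2 ratio was 2.80 ± 0.08 in CPT2H-KO hearts and 2.80 ± 0.01 in wild type hearts (SD, n = 5 each), a difference of 0.00 with p = 1.00 in a two-sided exact permutation test. The CPT2H-KO hearts were more spread and lay on both sides of the wild type hearts.

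Mature tRNAs and longer precursors cannot be told apart in the tRNA rows. Group means were 14.3 to 32.3 CPM for mt-Tl1, mt-Ti, mt-Tm and mt-Tw and 0.209 to 3.35 CPM for the other 8 rows. The mt-Tl1 gene, which lies between mt-Rnr2 and mt-Nd1 and encodes a leucine tRNA, had 18.9, 20.9, 21.6, 22.7 and 36.2 CPM in the CPT2H-KO hearts, against 12.5, 14.7, 17.7, 11.8 and 14.7 CPM in the wild type hearts. All CPT2H-KO hearts were above all wild type hearts, with replicate 5 far above the others (log2 fold change 0.76, SE 0.18, adjusted p = 0.00759). The mt-Tv gene, which encodes the valine tRNA between the 2 rRNA genes, had 0.731, 0.381, 0.671, 0.380 and 0.594 CPM in the CPT2H-KO hearts, against 0.274, 0.226, 0.180, 0.264 and 0.0991 CPM in the wild type hearts. The groups did not overlap (log2 fold change 1.36, SE 0.30, adjusted p = 0.00565). The mt-Tv row held few counts, 23 to 69 in CPT2H-KO libraries and 6 to 41 in wild type libraries. For the proline tRNA gene mt-Tp there were 1.46, 1.51, 1.57, 1.38 and 2.16 CPM in the CPT2H-KO hearts, against 0.741, 1.21, 0.935, 0.701 and 0.611 CPM in the wild type hearts, without overlap (log2 fold change 0.94, SE 0.21, adjusted p = 0.00575). The serine tRNA gene mt-Ts1 had 1.21, 0.927, 1.57, 1.21 and 1.17 CPM in the CPT2H-KO hearts, against 0.775, 0.726, 1.05, 0.662 and 0.810 CPM in the wild type hearts. CPT2H-KO replicate 2 lay below wild type replicate 3 (log2 fold change 0.59, SE 0.18, adjusted p = 0.0275), and the call was lost without CPT2H-KO replicate 3 or without any 1 of wild type replicates 1, 2 and 4.

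The other 8 tRNA rows were not called, with log2 fold changes from -0.34 (mt-Tq) to 0.97 (mt-Tg). The isoleucine and methionine tRNA genes mt-Ti and mt-Tm, which lie on either side of mt-Tq, were low in CPT2H-KO replicate 1. In the CPT2H-KO hearts mt-Ti had 2.47, 32.1, 34.3, 60.1 and 27.7 CPM, against 31.8, 40.8, 42.8, 21.8 and 24.0 CPM in the wild type hearts. mt-Tm had 6.98 CPM in that replicate and 26.9 to 38.5 CPM in the other CPT2H-KO hearts, against 19.1 to 31.7 CPM in the wild type hearts. Among the uncalled rows the same replicate also had the lowest levels of its group for mt-Tq, mt-Tw, mt-Tc and mt-Tg, but not for mt-Tr or mt-Tt.

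As shares of all counts, mtDNA rows made up 68.8%, 61.9%, 67.7%, 68.5% and 68.7% of the CPT2H-KO libraries, against 60.6%, 63.0%, 60.2%, 57.9% and 61.1% of the wild type libraries. CPT2H-KO replicate 2 lay below wild type replicate 2, and the other 4 CPT2H-KO libraries were above all wild type libraries. The rRNA genes accounted for most of this, at 61.4 ± 3.03% in CPT2H-KO hearts and 55.4 ± 1.75% in wild type hearts, and the protein genes for 5.74 ± 0.40% and 5.14 ± 0.32% (SD, n = 5 each). Per count of a nuclear gene there were 1.62 to 2.20 mtDNA counts in CPT2H-KO hearts and 1.37 to 1.70 in wild type hearts. These shares are descriptions and were not tested. All tRNA rows together were at most 0.0140% of counts in a CPT2H-KO heart and 0.0138% in a wild type heart.

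The make-up of the deposited protein gene counts differed between the groups in a way that no scaling of libraries can alter. The assignment of reads that fit several places, which the sources used here do not state, can alter the shares below. Of the genes whose shares separated the groups, mt-Co1, mt-Nd4 and mt-Nd4l have a nuclear copy at 99% identity or more, and mt-Nd5 has no annotated one. The mt-Co1 share of all mtDNA protein counts was 51.6%, 54.0%, 51.7%, 52.0% and 54.3% in CPT2H-KO hearts, against 57.1%, 56.3%, 57.4%, 57.4% and 58.2% in wild type hearts. Every CPT2H-KO heart was below every wild type heart. The mt-Nd5 share was 8.04 ± 1.50% in CPT2H-KO hearts and 5.56 ± 0.14% in wild type hearts, and the mt-Nd4 share was 6.30 ± 0.44% in CPT2H-KO hearts and 4.79 ± 0.17% in wild type hearts (SD, n = 5 each). Shares of mt-Nd4l, mt-Nd4 and mt-Nd5 were higher in every CPT2H-KO heart, and those of the other 9 protein genes overlapped. mt-Nd1 and mt-Cytb kept close to the same share, at 13.7 ± 1.21% and 12.5 ± 0.83% in CPT2H-KO hearts and 13.8 ± 0.16% and 12.6 ± 0.18% in wild type hearts.

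mt-Nd5 and mt-Nd6 meet tail to tail on opposite strands of mtDNA and overlap by 14 bases. Their ratio sets 1 gene of each strand side by side within 1 library and does not stand for the strands as wholes. mt-Nd5 had the largest log2 fold change of the protein genes (0.97), and mt-Nd6 stood at 0.55. The mt-Nd6 share of protein gene counts was 0.157 ± 0.0196% in CPT2H-KO hearts and 0.144 ± 0.00931% in wild type hearts (SD, n = 5 each), with overlap. For each mt-Nd5 count there were 0.0172, 0.0242, 0.0164, 0.0211 and 0.0206 mt-Nd6 counts in CPT2H-KO hearts, against 0.0261, 0.0270, 0.0243, 0.0248 and 0.0275 in wild type hearts. The groups did not overlap, although CPT2H-KO replicate 2 and wild type replicate 3 were almost equal. The mean log2 ratio was -5.67 ± 0.23 in CPT2H-KO hearts and -5.27 ± 0.08 in wild type hearts (SD, n = 5 each), a difference of -0.40 with p = 0.00794 in a two-sided exact permutation test, the smallest that 5 against 5 libraries allow, and 0.0159 after Benjamini-Hochberg adjustment over the 2 ratios tested. The sources used here do not state the strand setting used in counting, and antisense reads within either row cannot be told apart from sense reads.

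**Figure D4:**
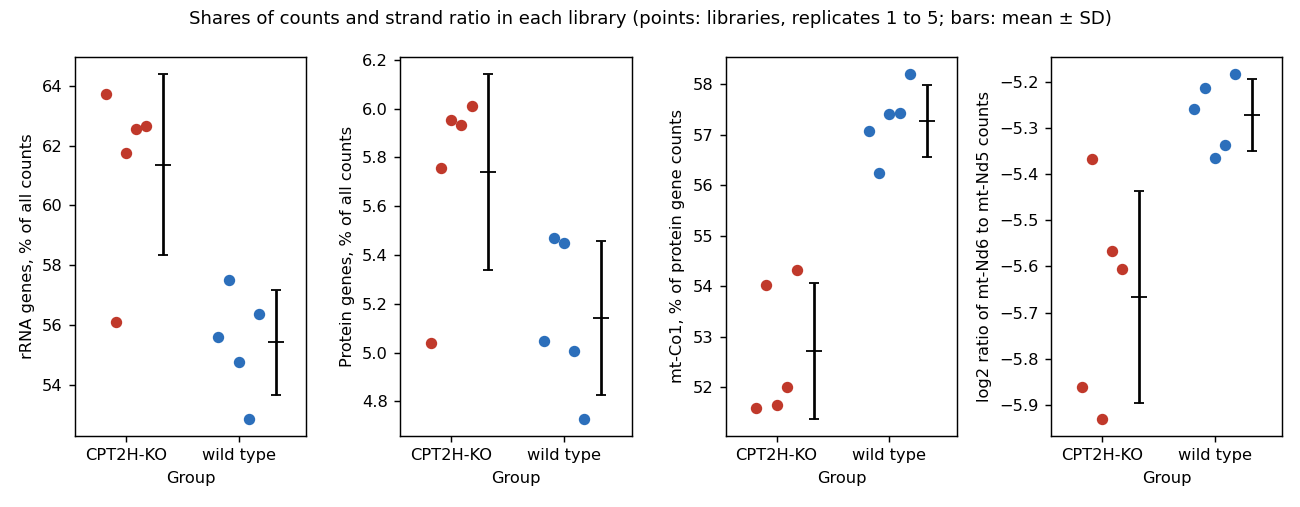
From left to right, the share of rRNA genes and of protein genes in all counts, the share of mt-Co1 in the protein gene counts, and the log2 ratio of mt-Nd6 to mt-Nd5 counts, for 5 CPT2H-KO and 5 wild type libraries; bars give the mean and SD, and the y axes do not start at 0. CPT2H-KO replicate 2 (second point) lies at 56.1% rRNA counts, within the wild type range, while all CPT2H-KO points lie below the wild type points in the 2 right-hand panels.

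Nuclear genes for the same complexes went the other way in the same fit. Of the nuclear complex I subunits 33 of 36 fell and 0 rose, with a median log2 fold change of -0.34, beside 6 of 7 mtDNA subunits that rose and 17.0% of all genes that fell. Of the nuclear complex III subunits 7 of 9 fell (median -0.33), of complex IV 12 of 12 (median -0.44) and of complex V 13 of 15 (median -0.38), and 0 rose in any of them. With the level of atrial markers as a covariate 16, 4, 8 and 9 genes of complexes I, III, IV and V fell and 0 rose. Of the 8 cardiomyocyte markers 5 fell as well, at a median of -0.43 (log2) over all 8, and their part in these counts was not tested. Cox7a1, the complex IV subunit of heart and skeletal muscle, averaged 122 ± 23.9 CPM in CPT2H-KO hearts and 251 ± 29.3 CPM in wild type hearts (log2 fold change -1.04, SE 0.14, adjusted p = 0.000406). Ndufv1, which carries the NADH binding site of complex I, averaged 207 ± 15.5 CPM in CPT2H-KO hearts and 304 ± 18.9 CPM in wild type hearts (log2 fold change -0.55, SE 0.07, adjusted p = 0.000307). Uqcrb of complex III averaged 126 ± 14.6 CPM in CPT2H-KO hearts and 186 ± 11.7 CPM in wild type hearts, and Atp5g2, a gene for the ring subunit of complex V, averaged 26.9 ± 3.42 CPM in CPT2H-KO hearts and 43.7 ± 3.49 CPM in wild type hearts (SD, n = 5 each), and both fell without overlap. These lists were named with earlier results of these data known, and their direction is given beside the mtDNA genes as a description.

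After TMM scaling the nuclear genes that express and replicate mtDNA moved little and in both directions, and all genes also split between 16.7% higher and 17.0% lower. Of 21 members 3 rose (Elac2, Tfb2m and Supv3l1), 2 fell (Tefm and Slirp) and 16 were not called, and 5 had groups that did not overlap. These counts stand beside 33.7% of all genes called and 24.7% not overlapping. The median log2 fold change was -0.14, and the extremes were Polg2 at -0.40, which was not called, and Elac2 at 0.45. On library totals alone 8 of the 21 were called, all lower, and scaled to the summed mtDNA messages 17 were called, all lower.

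Among the transcription genes, Tfb2m (chr1:179528055-179546267, minus strand) encodes the factor that opens the mtDNA promoter for the polymerase. It had 16.5, 15.7, 15.2, 15.2 and 16.5 CPM in the CPT2H-KO hearts, against 12.7, 14.7, 14.1, 11.1 and 12.2 CPM in the wild type hearts. All CPT2H-KO hearts lay above all wild type hearts (log2 fold change 0.29, SE 0.08, adjusted p = 0.0189), though on library totals alone its log2 fold change was 0.03. Tefm (chr11:80136678-80142175, minus strand) encodes the elongation factor of the mitochondrial polymerase and had 4.80, 6.12, 5.13, 5.71 and 5.72 CPM in the CPT2H-KO hearts, against 6.80, 7.35, 7.13, 6.22 and 6.41 CPM in the wild type hearts. Every CPT2H-KO heart was below every wild type heart (log2 fold change -0.30, SE 0.08, adjusted p = 0.0184), and the adjusted p was 0.0531 without wild type replicate 2. Polrmt, the mitochondrial RNA polymerase, had 9.84, 12.7, 17.1, 15.8 and 12.0 CPM in the CPT2H-KO hearts, against 12.8, 12.6, 14.3, 13.5 and 12.3 CPM in the wild type hearts. CPT2H-KO replicates 1 and 5 were below and replicates 3 and 4 above all wild type hearts, and the gene was not called (log2 fold change 0.04, SE 0.13, adjusted p = 0.833). Tfam, which coats mtDNA and activates its promoters, had 14.3, 16.3, 16.7, 17.4 and 17.9 CPM in the CPT2H-KO hearts, against 15.3, 16.1, 15.7, 14.4 and 13.6 CPM in the wild type hearts. CPT2H-KO replicates 2 to 5 lay above the highest wild type heart and replicate 1 lay within the wild type range, and Tfam was not called (log2 fold change 0.14, SE 0.08, adjusted p = 0.172); without CPT2H-KO replicate 1 the log2 fold change was 0.19 (adjusted p = 0.0438). Tfb1m, a methyltransferase of the small rRNA, averaged 2.62 ± 0.577 CPM in CPT2H-KO hearts and 3.07 ± 0.299 CPM in wild type hearts (SD, n = 5 each) and was not called.

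None of the 6 replication genes passed the test, and 2 had an unadjusted p under 0.05, beside 44.5% of all genes. Twnk, the replicative helicase of mtDNA, is the row Peo1 in the first table and had 8.08, 12.6, 13.99, 12.3 and 10.8 CPM in the CPT2H-KO hearts, against 13.2, 11.7, 12.4, 11.4 and 10.9 CPM in the wild type hearts. CPT2H-KO replicate 1 was the lowest of the 10 hearts and replicate 3 the highest (log2 fold change -0.04, SE 0.13, adjusted p = 0.818). Polg, the catalytic subunit of the mtDNA polymerase, averaged 33.0 ± 3.45 CPM in CPT2H-KO hearts and 30.8 ± 1.46 CPM in wild type hearts with a log2 fold change of 0.10. Its accessory subunit Polg2 averaged 1.35 ± 0.288 CPM in CPT2H-KO hearts and 1.79 ± 0.268 CPM in wild type hearts, and its log2 fold change was -0.40 (adjusted p = 0.0940). The single-stranded DNA binding protein gene Ssbp1 averaged 8.28 ± 0.829 CPM in CPT2H-KO hearts and 9.58 ± 0.643 CPM in wild type hearts, and its log2 fold change was -0.21 (adjusted p = 0.0739), SD and n = 5 each. The topoisomerase gene Top1mt and the exonuclease gene Mgme1 stood at log2 fold changes of 0.11 and -0.14.

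Among the 10 genes of RNA stability and processing, 2 rose and 1 fell, a share near the 33.7% called among all genes. Elac2 (chr11:64979038-65002069, plus strand) encodes the nuclease that cuts the trailing end of tRNAs out of the precursor and had 18.0, 17.6, 15.7, 15.1 and 16.8 CPM in the CPT2H-KO hearts, against 12.1, 12.7, 12.1, 12.2 and 11.8 CPM in the wild type hearts. The lowest CPT2H-KO heart lay above the highest wild type heart (log2 fold change 0.45, SE 0.06, adjusted p = 0.000589), though on library totals alone the log2 fold change was 0.19 and not called (adjusted p = 0.185). Trmt10c, a subunit of the nuclease that makes the cut at the leading end of the tRNA, averaged 8.70 ± 1.50 CPM in CPT2H-KO hearts and 9.67 ± 0.603 CPM in wild type hearts (SD, n = 5 each), with a log2 fold change of -0.15, and was not called. Supv3l1 (chr10:62429209-62449738, minus strand) is the RNA helicase of the mitochondrial degradosome and had 16.4, 18.6, 20.6, 17.9 and 19.0 CPM in the CPT2H-KO hearts, against 16.3, 15.9, 15.9, 14.3 and 15.9 CPM in the wild type hearts. CPT2H-KO replicate 1 was above wild type replicate 1 by a small margin, so the groups just failed to overlap (log2 fold change 0.24, SE 0.07, adjusted p = 0.0254); the call was lost without CPT2H-KO replicate 3 or wild type replicate 4, and on library totals alone the log2 fold change was -0.02. Pnpt1, the phosphorylase that works with this helicase, averaged 13.5 ± 1.66 CPM in CPT2H-KO hearts and 15.5 ± 0.538 CPM in wild type hearts (SD, n = 5 each), with a log2 fold change of -0.20 that did not pass (adjusted p = 0.0898).

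Slirp and Lrpprc form a complex that protects mitochondrial messenger RNAs and aids their polyadenylation. Slirp (chr12:87443896-87452206, plus strand) had 8.87, 11.0, 9.56, 10.4 and 11.9 CPM in the CPT2H-KO hearts, against 13.2, 13.0, 12.9, 12.4 and 12.3 CPM in the wild type hearts. All CPT2H-KO hearts were below all wild type hearts (log2 fold change -0.30, SE 0.08, adjusted p = 0.0160). Lrpprc had 108, 124, 134, 132.6 and 142 CPM in the CPT2H-KO hearts, against 136, 144, 136, 124 and 129.9 CPM in the wild type hearts. CPT2H-KO replicate 1 was the lowest of all hearts, replicate 2 was slightly below the wild type range, and the other 3 lay within it (log2 fold change -0.06, SE 0.08, adjusted p = 0.581). The FASTK family genes Fastkd1, Fastkd2, Fastkd3 and Fastkd5, which encode RNA-binding proteins of mitochondrial RNA maturation, had log2 fold changes from -0.20 to -0.06 and none was called. On library totals alone 8 of the 21 nuclear genes were called, all lower (Tefm, Slirp, Polg2, Ssbp1, Lrpprc, Fastkd1, Fastkd3 and Pnpt1). With the mean level of atrial markers as a covariate, 2 of the 21 nuclear genes were called, Elac2 and Tfb2m, and 11 of the 27 mtDNA genes, all higher.

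Other genes of the pathway were read from lists, whose counts stand beside 33.7% of all genes called, 16.7% higher and 17.0% lower. On library totals alone 0 genes rose in the lists of RNA processing, RNA modification and replication, 1 in that of nucleotide supply and 2 among the regulators, and of the genes named as higher Myc and Pprc1 were still called, but Tbrg4, Rexo2, Pde12, Pus1, Atad3a and Rrm1 were not. Of 20 further genes of RNA processing, stability and termination 3 rose and 3 fell, with a median log2 fold change of -0.04. Tbrg4, a FASTK family gene also known as Fastkd4, averaged 23.7 ± 2.92 CPM in CPT2H-KO hearts and 17.3 ± 0.455 CPM in wild type hearts (log2 fold change 0.46, SE 0.08, adjusted p = 0.00224). Rexo2, an exonuclease that clears short RNAs, and Pde12, which shortens poly(A) tails in mitochondria, also rose, by log2 fold changes of 0.30 and 0.31. Angel2 of the same list fell (log2 fold change -0.32, SE 0.07, adjusted p = 0.00595). Of 27 genes for rRNA and tRNA modification 5 rose and 4 fell, with a median of -0.10. Osgepl1, which takes part in a tRNA modification next to the anticodon, fell and averaged 12.3 ± 2.27 CPM in CPT2H-KO hearts and 24.2 ± 2.13 CPM in wild type hearts (log2 fold change -0.98, SE 0.13, adjusted p = 0.000291). Trmt5 fell as well (log2 fold change -0.62, SE 0.08, adjusted p = 0.00031), and Pus1, a pseudouridine synthase, rose by a log2 fold change of 0.49.

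Of 15 further genes of mtDNA replication and repair 3 rose and 3 fell, with a median of -0.02. Mpv17, an inner membrane protein whose loss depletes mtDNA, fell and averaged 8.71 ± 1.50 CPM in CPT2H-KO hearts and 20.5 ± 2.03 CPM in wild type hearts (log2 fold change -1.23, SE 0.12, adjusted p = 4.77e-05), and Atad3a, a membrane ATPase associated with nucleoids, rose and averaged 32.9 ± 2.60 CPM in CPT2H-KO hearts and 23.5 ± 1.14 CPM in wild type hearts (log2 fold change 0.48, SE 0.07, adjusted p = 0.000540). Of 9 genes of mitochondrial nucleotide supply 3 rose and 3 fell: the salvage kinase gene Dguok averaged 6.15 ± 1.04 CPM in CPT2H-KO hearts and 8.92 ± 0.853 CPM in wild type hearts (log2 fold change -0.54, SE 0.12, adjusted p = 0.00620), and the ribonucleotide reductase subunit gene Rrm1 averaged 12.6 ± 2.03 CPM in CPT2H-KO hearts and 8.45 ± 0.817 CPM in wild type hearts (log2 fold change 0.57, SE 0.11, adjusted p = 0.00335). Ak4 of the nucleotide supply list also fell (log2 fold change -1.08, SE 0.18, adjusted p = 0.00116). Of 12 nuclear regulators 5 rose and 1 fell, with a median of 0.17. Myc averaged 7.14 ± 3.78 CPM in CPT2H-KO hearts and 1.22 ± 0.716 CPM in wild type hearts (log2 fold change 2.58, SE 0.43, adjusted p = 0.00129), and Pprc1, a relative of the coactivator PGC-1, averaged 9.82 ± 2.03 CPM in CPT2H-KO hearts and 5.34 ± 0.482 CPM in wild type hearts (log2 fold change 0.87, SE 0.13, adjusted p = 0.000711). In these lists, SD and n = 5 hold for each mean.

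**Figure D5:**
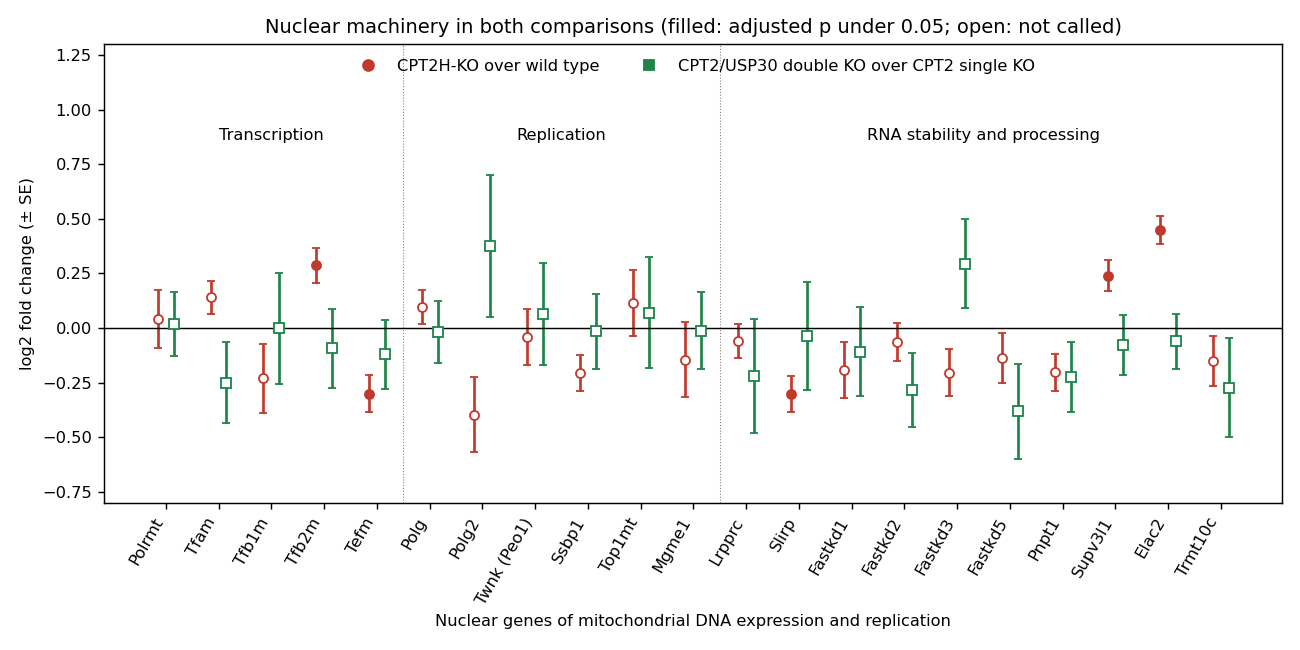
Log2 fold change with SE on the y axis for the 21 nuclear genes, grouped by role, for CPT2H-KO over wild type (red circles) and CPT2/USP30 double KO over CPT2 single KO (green squares); filled points passed an adjusted p of 0.05. Tfb2m, Supv3l1 and Elac2 are filled above 0 and Tefm and Slirp below it in the first comparison, and no square is filled; on library totals alone Supv3l1 falls to -0.02.

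In CPT2/USP30 double KO against CPT2 single KO hearts, none of the 21 nuclear genes passed the test with edgeR, and none had an unadjusted p under 0.05. Usp30 itself did not pass this test either, although its groups did not overlap (log2 fold change -1.16, SE 0.18, adjusted p = 0.147). The lowest adjusted p of any gene was 0.127, so the absence of calls among members says little. Among all 12997 genes tested 0.0% were called, 7.25% had an unadjusted p under 0.05 and 11.8% had groups that did not overlap (6.69% higher in double KO hearts and 5.07% lower); DESeq2 called 115 genes and limma-voom 0, with 0 members among them. Among the 21 members, 1 had groups that did not overlap, Fastkd3, at 8.63, 8.69 and 8.83 CPM in the double KO hearts and 6.51, 8.54 and 6.23 CPM in the single KO hearts. The median log2 fold change (double KO over single KO) was -0.06 over the members and 0.00 over all genes.

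The 5 genes called in CPT2H-KO hearts were Elac2, Tfb2m, Supv3l1, Tefm and Slirp. Elac2 had 58.5, 64.1 and 58.6 CPM in the double KO hearts, against 59.9, 64.0 and 65.3 CPM in the single KO hearts. The groups overlapped (log2 fold change -0.06, SE 0.13, adjusted p = 0.956). Tfb2m had 52.4, 66.7 and 67.0 CPM in the double KO hearts, against 59.3, 57.0 and 82.3 CPM in the single KO hearts. Single KO replicate 3 was the highest heart and double KO replicate 1 the lowest (log2 fold change -0.09, SE 0.18, adjusted p = 0.951). Supv3l1 had 48.2, 59.2 and 53.8 CPM in the double KO hearts, against 54.2, 55.1 and 60.8 CPM in the single KO hearts. Double KO replicate 1 was the lowest here too (log2 fold change -0.08, SE 0.14, adjusted p = 0.947). Tefm had 12.8, 13.8 and 12.2 CPM in the double KO hearts, against 14.3, 12.6 and 15.2 CPM in the single KO hearts, with overlap (log2 fold change -0.12, SE 0.16, adjusted p = 0.924). Slirp had 39.4, 21.2 and 20.6 CPM in the double KO hearts, against 28.4, 24.2 and 30.7 CPM in the single KO hearts. Double KO replicate 1 was the highest heart and replicates 2 and 3 the lowest (log2 fold change -0.04, SE 0.25, adjusted p = 0.987).

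Polrmt had 67.0, 78.3 and 63.9 CPM in the double KO hearts, against 67.8, 76.5 and 62.4 CPM in the single KO hearts, with overlap (log2 fold change 0.02, SE 0.15, adjusted p = 0.990). Tfam had 25.4, 37.8 and 37.6 CPM in the double KO hearts, against 36.3, 37.4 and 46.2 CPM in the single KO hearts. Double KO replicate 1 was the lowest and single KO replicate 3 the highest (log2 fold change -0.25, SE 0.18, adjusted p = 0.847). Twnk had 21.8, 41.2 and 34.8 CPM in the double KO hearts, against 25.2, 32.6 and 35.9 CPM in the single KO hearts. The groups overlapped (log2 fold change 0.06, SE 0.23, adjusted p = 0.982). Lrpprc had 135, 284 and 245 CPM in the double KO hearts, against 219, 243 and 312 CPM in the single KO hearts. Double KO replicate 1 stood well below the other 5 hearts (log2 fold change -0.22, SE 0.26, adjusted p = 0.917). Without that library the median log2 fold change over the 21 members was 0.01 and 114 genes of all those tested were called, none of them a member. The SE of a member's log2 fold change ran from 0.13 (Elac2) to 0.33 (Polg2) in this comparison, beside log2 fold changes of 0.24 to 0.45 in size for the 5 members called in CPT2H-KO hearts. The atrial marker Myl7 also separated these groups, at 1.49, 102 and 425 CPM in the double KO hearts and 0.0813, 0.0749 and 0.458 CPM in the single KO hearts; with atrial markers as a covariate 64 genes were called, none of them a member.

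The start sites of the nuclear members were searched for 2 motifs of factors known to act on such genes. RefSeq promoter windows on GRCm38.p6, from 250 bases before to 50 bases after the annotated start, were found for 20 of the 21 genes, 21 windows in all because Twnk has 2. The core of the NRF-1 site, searched on both strands, was in the windows of Polrmt and Fastkd3, 9.5% of the member windows beside 4.6% of all 32851 windows. The core bound by ETS factors such as GABPA, CCGGAAG or its reverse complement CTTCCGG, was in 10 of the 21 member windows (47.6%), beside 8.86% of all windows. Among the called genes, the windows of Slirp and Tefm held the ETS letters and those of Elac2, Tfb2m and Supv3l1 did not. Among the uncalled genes, windows of Polrmt, Tfam, Polg, Polg2, Twnk, Ssbp1, Fastkd5 and Trmt10c held them. Those of Tfb1m, Mgme1, Lrpprc, Fastkd1, Fastkd2, Fastkd3 and Pnpt1 did not, and a link between the letters and direction was not tested. The windows of Elac2, which rose (chr11:64978785-64979084, plus strand), and of Slirp, which fell (chr12:87443646-87443945, plus strand), are shown as examples of each, with ETS matches in capitals.
Elac2: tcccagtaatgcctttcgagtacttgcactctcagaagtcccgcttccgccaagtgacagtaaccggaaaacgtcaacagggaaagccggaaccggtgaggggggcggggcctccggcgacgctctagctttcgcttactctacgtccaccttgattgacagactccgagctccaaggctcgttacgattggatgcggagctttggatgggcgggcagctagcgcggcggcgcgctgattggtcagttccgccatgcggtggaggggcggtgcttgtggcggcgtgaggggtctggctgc
Slirp: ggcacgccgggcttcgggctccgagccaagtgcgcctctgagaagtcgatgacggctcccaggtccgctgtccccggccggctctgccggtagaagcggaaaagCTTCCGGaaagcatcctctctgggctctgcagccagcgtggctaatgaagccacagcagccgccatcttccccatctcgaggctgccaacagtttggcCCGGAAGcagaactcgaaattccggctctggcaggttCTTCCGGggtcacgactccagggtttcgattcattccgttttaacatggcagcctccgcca
A match is a description of the letters in the window and was not tested as a binding site.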

How the data were processed

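RNA sequencing of mouse hearts gave 16 libraries, 5 per group in the first table and 3 per group in the second, grouped by their sample titles. Per the labels' protocols, total RNA was treated with DNase and stranded libraries were made after ribosomal RNA removal. Per the submitters' processing notes, bcl2fastq, HISAT2, DESeq2 1.42.0 and the mm10 build were used; not given in the sources used here are the counting program, its annotation, its strand setting and its treatment of reads with several matches. The authors deposited raw counts per gene in 2 tables, and 1 row without a gene name in the second was left out. Genes absent from the first table were not analysed here.

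Counts were tested within each table with edgeR 4.0.16 in R 4.3.3 (filterByExpr, TMM, quasi-likelihood F test, Benjamini-Hochberg over all tested genes, threshold 0.05), which was tested on simulated data. SE is the size of the log2 fold change over the root of the F value. Ratios of 2 rows were compared by exact permutation. Nuclear copies were found by aligning GENCODE M21 sequences of mtDNA genes to its nuclear transcripts, keeping at least 90% identity over 100 bases. Alternatives were other scalings, no filter, DESeq2 1.42.0, limma-voom (limma 3.58.1), a replicate block, an atrial covariate (mean log2 CPM of Myl7, Myl4 and Sln), scaling to mtDNA messages and leaving out each library. Full values per sample were given for members called in CPT2H-KO hearts and for Polrmt, Tfam, Twnk and Lrpprc; from other lists, up to 4 called genes with the smallest p could be named. The members and lists were chosen with earlier results of these data known. Litters are not stated, so p-values reflect the spread among these samples. No 2 libraries of a group agreed within sampling noise (chi-square per degree of freedom at least 9.64). Libraries of the same number were not taken as pairs.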

Additional observations from a re-analysis of the deposited data

Results flagged for a closer look

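In groups of 5 libraries, 1 library was flagged where its distance to the nearest other library, divided by the range of the group, exceeded Dixon's critical value of 0.71. Of 102 groups tested 7 were flagged, and chance flags about 1 group in 20. CPT2H-KO replicate 5 stood above its group for mt-Tl1, at 36.2 CPM beside 18.9 to 22.7 CPM in the other CPT2H-KO hearts, and for mt-Tp, at 2.16 CPM beside 1.38 to 1.57 CPM. CPT2H-KO replicate 2 stood below its group in the share of counts from mtDNA rows, at 61.9% beside 67.7% to 68.8%, and in the rRNA share, at 56.1% beside 61.7% to 63.7%. CPT2H-KO replicate 1 had the lowest share of counts from mtDNA protein genes, at 5.04% beside 5.76% to 6.01%. Wild type replicate 2 stood above its group for mt-Co3, at 309 CPM beside 152 to 172 CPM in the other wild type hearts, and wild type replicate 4 below its group for Supv3l1, at 14.3 CPM beside 15.9 to 16.3 CPM.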

How the results depend on the processing

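Of the 27 mtDNA genes 16 were called, and every alternative called genes in the higher direction only: 8 on library totals, 6 scaled to mtDNA messages, 11 with the atrial covariate and 11 to 15 on leaving out each library. Scaled to mtDNA messages, the log2 fold change was -0.010 for mt-Rnr1, -0.008 for mt-Rnr2, -0.009 for mt-Nd1, -0.120 for mt-Co1 and -0.016 for mt-Cytb, and none of these was called. Of the 21 nuclear genes 5 were called, and 8 on library totals (all lower, with Supv3l1 at -0.016), 2 with the atrial covariate, 17 (all lower, median log2 fold change -0.567) scaled to mtDNA messages, and 4 to 6 on leaving out each library. Over all genes the CPT2H-KO comparison called 4758 and, with the atrial covariate, 3103. The second comparison called 0 genes, but 115 with DESeq2, 64 with the atrial covariate and 0 to 114 on leaving out each library, with 0 members called in each. The replicate block called 12 mtDNA and 4 nuclear genes of the first comparison, without mt-Rnr1, mt-Rnr2, mt-Nd1, mt-Co1 and Supv3l1, 4179 genes over all, and 1 gene of the second. Titles number the hearts, but the correlation of same-numbered libraries was over 0.1 in 3 of 5 pairs (-0.01 to 0.36) and in 2 of 3 (-0.18 to 0.28), not in every pair, so the libraries were taken to share only a number. Differently numbered libraries ran from -0.37 to 0.33 in the first comparison and from -0.34 to 0.23 in the second. Whether same-numbered hearts were handled together was not tested further. The log2 ratio of mt-Rnr2 to mt-Rnr1 differed by -0.028 to 0.021 on leaving out each library, with -0.006, -0.028, -0.004, -0.001 and -0.003 below 0, and that of mt-Nd6 to mt-Nd5 by -0.47 to -0.33, where p = 0.0159 in each exact permutation test. The groups of the mt-Nd6 to mt-Nd5 ratio did not overlap with all libraries in, so each of these tests was bound to give the smallest p it allows. The summed share of mtDNA rRNA and protein counts differed by 0.148 (log2) over all counts, by 0.418 over nuclear counts, and by 0.132 to 0.176 on leaving out each library. Adding the nuclear copies, chosen after seeing the data, left 16 mtDNA calls. Counting error is largest in the rows with few counts, such as mt-Tg with 8 to 101 counts in CPT2H-KO libraries and 1 to 89 in wild type libraries, a range whose cause was not tested.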
